A study of Mus musculus with 7 samples.

Results

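The genes described are 8 small leucine-rich proteoglycans, Dcn (decorin), Bgn (biglycan), Aspn (asporin), Lum (lumican), Fmod (fibromodulin), Prelp, Ogn (osteoglycin) and Podn (podocan). They were chosen by symbol, each being 1 row of a count matrix of 27998 genes. The choice was tied to the age pattern of Dcn, a rise in hormone-sensing luminal cells against falls in other types. All age differences of Dcn, the falls included, are therefore given below as values with no test. The 8 genes held 147145 of the 83649527 unique molecular identifiers (UMIs) in the matrix. A UMI tags 1 transcript at its 3′ end, so a level in CPM (the UMIs of a gene relative to all UMIs of the summed cells, scaled to a common total) does not scale with the length of a gene and levels of different genes can be set side by side.

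The matrix came from droplet-based single-cell RNA-seq of abdominal mammary glands, with lymph nodes removed, of 3 young (Young A to C, 3 to 4 months) and 4 aged (Aged A to D, 13 to 14 months) virgin female mice. Their background mixed the strains FVB, 129 and C57BL/6J. All 7 were taken at diestrus, no treatment or transgene is given for any of them, and each gave 1 library. The comparison asks how these genes differ between cell types and between the age groups. The mouse is the replicate throughout.

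Small leucine-rich proteoglycans are secreted proteins of the extracellular matrix. A curved array of leucine-rich repeats binds fibrillar collagen and limits the width of fibrils, and side chains of chondroitin, dermatan or keratan sulfate are attached to many of the family. Decorin and biglycan also bind transforming growth factor β, decorin acts on the receptors Met and Egfr, and biglycan released from matrix is a ligand of Toll-like receptors. In connective tissue these genes are known mainly as products of fibroblasts and other mesenchymal cells.

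The family is divided into classes by a cluster of 4 cysteines before the repeats, and the coding DNA of that cluster is shown because it separates the members whose transcripts are described together below. The sequences are from GENCODE vM21 on GRCm38 (mm10), read 5′ to 3′ on the coding strand, and each lies in a single exon. Capitals mark the 4 cysteine codons.
Dcn: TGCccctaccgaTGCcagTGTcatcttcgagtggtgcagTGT
Bgn: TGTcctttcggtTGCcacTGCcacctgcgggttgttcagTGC
Aspn: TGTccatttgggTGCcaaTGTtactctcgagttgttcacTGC
Lum: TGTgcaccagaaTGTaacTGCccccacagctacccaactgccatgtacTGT
Fmod: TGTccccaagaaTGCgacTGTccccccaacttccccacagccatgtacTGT
Prelp: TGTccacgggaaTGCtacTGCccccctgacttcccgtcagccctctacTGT
Ogn: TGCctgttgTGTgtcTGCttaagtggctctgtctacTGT
Podn: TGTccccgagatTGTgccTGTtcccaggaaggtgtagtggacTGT
In Dcn, Bgn and Aspn, the members of class I, the gaps between the cysteines were 3, 1 and 6 codons. In Lum, Fmod and Prelp, the members of class II, they were 3, 1 and 9 codons. Ogn, of class III, had gaps of 2, 1 and 6 codons, and Podn had gaps of 3, 1 and 7 codons.

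The members also sit in clusters in the genome. The cysteine codons of Dcn lie in exon 2 of the transcript used, at chr10:97483507-97483548 on the plus strand, and those of Lum in exon 2 at chr10:97568353-97568403 on the same strand, with Kera and Epyc, also of the family, on that chromosome. Those of Aspn (exon 2, chr13:49551865-49551906, plus strand) and Ogn (exon 4, chr13:49615566-49615604, plus strand) are on chromosome 13 beside Omd and Ecm2. Those of Fmod (exon 2, chr1:134040449-134040499, plus strand) and Prelp (exon 2, chr1:133915151-133915201, minus strand) are on chromosome 1 beside Optc. Bgn is on chromosome X (exon 2, chrX:73490979-73491020, plus strand) and Podn on chromosome 4 (exon 3, chr4:108027042-108027086, minus strand). The spans of Aspn and Ogn overlap that of Cenpp, that of Prelp overlaps Gm15851, and that of Podn overlaps Scp2, Gm23354 and Mir6397. Strand and exons were not compared, and an effect of these overlaps on the counts was not tested.

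The libraries held 1264 to 2865 cells and 6652599 to 16999625 UMIs, and 44 of 13640 distinct barcodes occurred in more than 1 library. The 13 cell types were named by the authors. Marker lists fixed for this work were highest in the type they name, except that the T cell list was highest in NK cells. Fibroblasts were 25.9%, 14.6% and 36.1% of the cells of Young A, B and C, and 7.34%, 1.49%, 1.09% and 1.1% of those of Aged A, B, C and D. Every difference with age outside fibroblasts below stands beside that difference in fibroblast number. Barcodes of young and aged libraries also differ in format, and an effect of how a library was made cannot be told apart from one of age.

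Summed over all mice, fibroblasts held most transcripts of 6 of the 8 genes. The share of a gene's UMIs found in fibroblasts was 95.5% for Lum, 95.1% for Ogn, 94.3% for Podn, 91.3% for Dcn, 74.9% for Aspn and 54.7% for Bgn, against 18.2% for Prelp and 9.01% for Fmod. The young mice, with more fibroblasts, set these shares. In the aged mice alone (types with at least 3 cells) fibroblasts held most UMIs of Dcn (68.3%), Lum (94.4%), Ogn (72.9%) and Podn (83.3%), but 18.3% of those of Bgn and 21.6% of those of Aspn. There Bgn had 922 UMIs in fibroblasts, 1891 in myoepithelial and 1768 in vascular endothelial cells, and Aspn had 44 in fibroblasts and 141 in pericytes. By mean level over mice, 5 genes (Dcn, Bgn, Lum, Ogn and Podn) were highest in fibroblasts, Aspn in pericytes, Fmod in myoepithelial cells and Prelp in lymphatic endothelial cells. The cell types were defined by clustering these same cells, so differences in level between types are a description with no test.

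**Figure D1:**
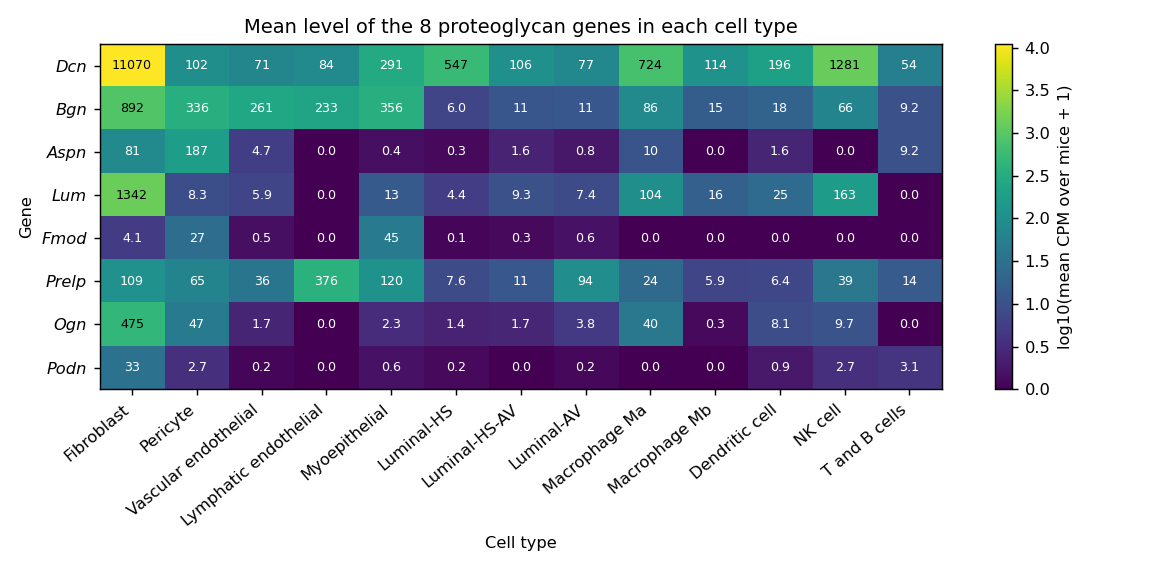
Mean level of each of the 8 genes (rows) in each of the 13 cell types (columns), in CPM averaged over mice with at least 3 cells of the type; colour is log10 of the mean plus 1 and each cell prints the mean. Dcn reaches 11070 CPM in fibroblasts, while Aspn peaks in pericytes, Fmod in myoepithelial cells and Prelp in lymphatic endothelial cells.

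Decorin was the most abundant member in fibroblasts by a wide margin. Its level was 10347, 11492 and 10084 CPM in fibroblasts of Young A, B and C, and 9954, 16505, 10433 and 8676 CPM in those of Aged A to D. The mean of 11070 ± 2536 CPM (SD, n = 7) was 8.64 times that of the next type, NK cells. A Dcn UMI was found in 1991 of 1993 fibroblasts, 99.9% (95% Wilson interval 99.6% to 99.97%, counting error only), with up to 270 UMIs in 1 cell. The median fibroblast of every mouse held UMIs of 4 of the 8 genes.

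The level of Dcn in NK cells rested on few cells. It was 3009, 0 and 1041 CPM in the young mice and 2357 and 0 CPM in Aged A and B, the 2 aged mice with at least 3 NK cells. In Young A, 4 of 9 NK cells held all 140 Dcn UMIs, and in Aged A, 3 of 5 cells held all 50. The level was therefore not estimated beyond these few cells, and Dcn in Ma macrophages, 795, 369 and 1008 CPM in the young mice, had no aged counterpart.

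Biglycan was spread over more cell types than Dcn. Its mean was 892 ± 414 CPM in fibroblasts (SD, n = 7), then 356 ± 115 in myoepithelial cells, 336 ± 134 in pericytes, 261 ± 136 in vascular endothelial cells and 233 ± 124 (n = 5) in lymphatic endothelial cells. From myoepithelial to lymphatic endothelial cells the means of neighbouring types lay within 1 SD of each other. In luminal cells Bgn was low, at 11.5 ± 9.0 CPM in AV (alveolar) cells.

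Asporin, which binds collagen and transforming growth factor β, was the only class I member highest in pericytes, the mural cells of small vessels. Its mean was 187 ± 120 CPM in pericytes and 80.7 ± 46.1 CPM in fibroblasts (SD, n = 7), and these intervals overlapped. No other type reached more than 10.2 CPM.

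The class II members, which share the longer cysteine spacing printed above, differed from each other in where they were found. Lumican, a keratan sulfate proteoglycan that binds fibrillar collagen, had a mean of 1342 ± 561 CPM in fibroblasts (SD, n = 7) and of 163 ± 163 CPM in NK cells (n = 5), and its 34 UMIs in NK cells also came from few cells. Fibromodulin, which competes with lumican for a site on collagen, had only 4.1 CPM in fibroblasts and was found in myoepithelial cells at 45.4 ± 31.7 CPM and in pericytes at 26.8 ± 35.8 CPM. Prelp, which links collagen to heparan sulfate of basement membranes, had 376 ± 112 CPM in lymphatic endothelial cells (n = 5), 120 ± 78 in myoepithelial cells, 109 ± 22 in fibroblasts and 93.7 ± 36.1 in AV cells. The lymphatic level rested on 52 UMIs, and the 3 types that followed it lay within 1 SD of each other.

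Osteoglycin and podocan, both of which bind collagen or act on its fibrils, followed the fibroblast pattern. Ogn had 475 ± 186 CPM in fibroblasts (SD, n = 7), 10.0 times its mean of 47.4 CPM in pericytes. Podn had 32.9 ± 14.8 CPM in fibroblasts and no other type above 3.1 CPM.

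The pattern of a gene over the 13 cell types was compared with that of 5292 genes that reached 50 CPM in some type, by Pearson's r of mean levels, as a description in which all points share libraries and depth. The nearest patterns to Dcn were those of Gsn (r = 0.94), Crabp1 (0.93) and Scg3 (0.92), and the nearest to Bgn those of Tgfbr3 (0.98), Eln (0.97) and Selm (0.96). Lum was nearest to Col1a1 (0.96), Inmt (0.96) and Lama2 (0.95), and Ogn to Cd248 (0.98), C1qtnf2 (0.97) and Islr (0.95). Fmod was nearest to Myh11 (0.94), Acta2 (0.93) and Id4 (0.92), the first pair being smooth muscle genes. Aspn was nearest to Efhd1 (0.93), Npy1r (0.91) and Vtn (0.91), Prelp to Ephx1 (0.93), Golim4 (0.93) and Nudt4 (0.90), and Podn to Aldh1a1 (0.91), Krtdap (0.90) and Penk (0.86). Among the members themselves, r was 0.88 between Dcn and Lum and 0.12 between Dcn and Fmod.

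Fibroblasts were then divided by genes outside the family, into cells with a UMI of Pi16 or Dpp4 and none of Col15a1, and cells with a UMI of Col15a1 and none of Pi16 or Dpp4. Pi16 and Dpp4 mark adventitial fibroblasts and Col15a1 marks parenchymal ones in many tissues. The 4 mice with at least 10 cells of both sets were Young A, B and C and Aged A, which had 14 Col15a1 cells. Of the 7 members tested, 3 were higher and 3 lower in Col15a1 cells at an adjusted p under 0.05 and at least 1.5-fold (edgeR's quasi-likelihood test with the mouse as a block, Benjamini-Hochberg over 5573 genes), where 18% of all genes were called, 8.06% higher and 9.92% lower. Levels in these sets are CPM scaled by edgeR's TMM factors.

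**Figure D2:**
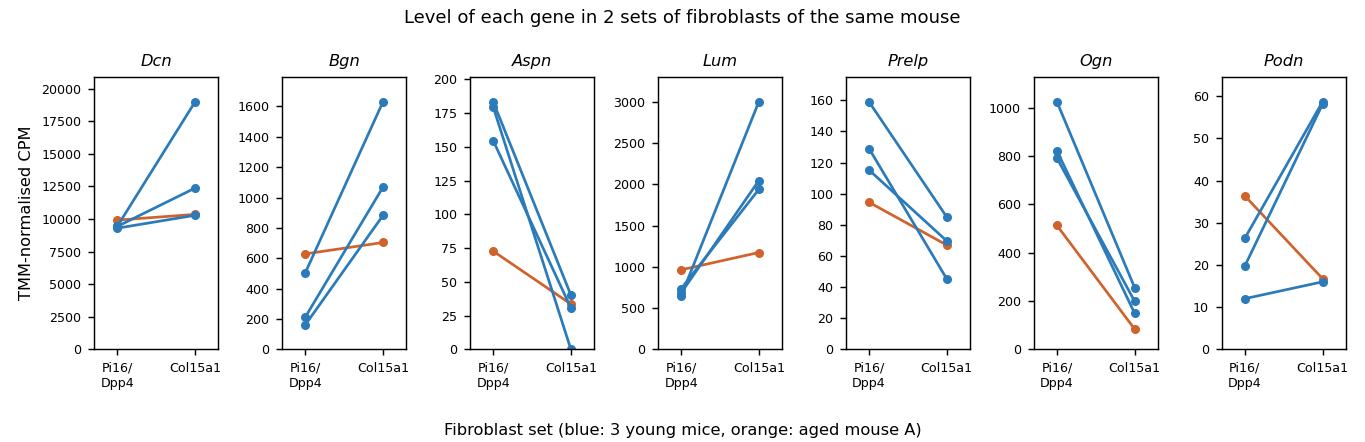
Level of 7 members in Pi16/Dpp4 and Col15a1 fibroblasts, in CPM scaled by edgeR's TMM factors, with 1 line for each mouse (blue, 3 young mice; orange, Aged A) and each panel starting at 0. Bgn and Lum rise and Aspn, Prelp and Ogn fall from left to right in all 4 mice, while Podn falls in Aged A alone.

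Ogn and Aspn were both lower in Col15a1 cells. Ogn was 821, 1024, 791 and 512 CPM in Pi16/Dpp4 cells of Young A, B, C and Aged A, and 149, 255, 199 and 83.8 CPM in Col15a1 cells of the same mice. The sets did not overlap, and the log2 fold change was -2.21 ± 0.19 (SE, adjusted p = 3.6e-07 by edgeR). Aspn was 154, 179, 183 and 72.7 CPM in Pi16/Dpp4 cells and 30.6, 0, 40.2 and 33.5 CPM in Col15a1 cells, with a log2 fold change of -2.34 ± 0.29 (SE, adjusted p = 1.2e-05 by edgeR). Prelp was lower in Col15a1 cells of 4 of 4 mice, by a log2 fold change of -1.06 ± 0.23 (SE, adjusted p = 0.0027 by edgeR), and this call was lost without Young A (log2 fold change -0.81, adjusted p = 0.106 by edgeR; 0.00039 to 0.106 over the alternatives).

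Bgn and Lum were higher in Col15a1 cells. Bgn was 161, 212, 504 and 629 CPM in Pi16/Dpp4 cells of Young A, B, C and Aged A, and 882, 1068, 1630 and 704 CPM in Col15a1 cells. It was higher in 4 of 4 mice, least so in Aged A, with a log2 fold change of 1.73 ± 0.27 (SE, adjusted p = 0.00012 by edgeR). Lum was 734, 683, 646 and 963 CPM in Pi16/Dpp4 cells and 1937, 2044, 2999 and 1173 CPM in Col15a1 cells, and its log2 fold change was 1.43 ± 0.22 (SE, adjusted p = 0.0001 by edgeR). Lum and Ogn, which both had over 95% of their UMIs in fibroblasts, thus differed in opposite directions between the sets.

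Dcn was 9295, 9450, 9433 and 9914 CPM in Pi16/Dpp4 cells of Young A, B, C and Aged A, and 10283, 18988, 12372 and 10354 CPM in Col15a1 cells. The 1.32-fold difference was under the 1.5-fold minimum, although its adjusted p was 0.031 by edgeR. Podn was called higher (log2 fold change 0.90 ± 0.30, SE, adjusted p = 0.042 by edgeR) but was higher in only 3 of 4 mice, and the call was lost without Young A or Young B (adjusted p = 0.115 and 0.113 by edgeR) and with DESeq2 (adjusted p = 0.312), over a range of 0.012 to 0.324. Fmod was too low in fibroblasts to be tested between the sets.

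Of the genes that act with the members, the collagens they bind differed most often between the sets. Among the 10 such collagens, 6 were higher in Col15a1 cells (Col6a2, log2 fold change 1.50, and Col5a2, 1.26, the most) and 1, Col14a1, was lower (-2.82), with a median of 0.92 against -0.03 over all genes, of which 8.06% were higher and 9.92% lower. Of 13 tested genes for chondroitin, dermatan and keratan sulfate synthesis none was higher and 3 were lower (8.06% and 9.92% of all genes), of which Chst1, a keratan sulfate sulfotransferase, was at -5.76. Of 2 tested family genes outside the set of 8, none was higher and 1, Omd, was lower at -1.73 (8.06% and 9.92% of all genes).

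The age difference of Dcn in luminal HS (hormone-sensing) cells was the largest rise of the gene in any cell type compared. Dcn was 85.6, 52.0 and 71.6 CPM in HS cells of Young A, B and C, and 514, 286, 995 and 1825 CPM in those of Aged A, B, C and D. Every aged mouse was above every young mouse, and the aged mice differed among themselves by more than the young mice did. The fitted ratio was 14.3-fold (log2 fold change 3.84 ± 0.58, SE), and without Aged D, the highest, the log2 fold change was 3.15.

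**Figure D3:**
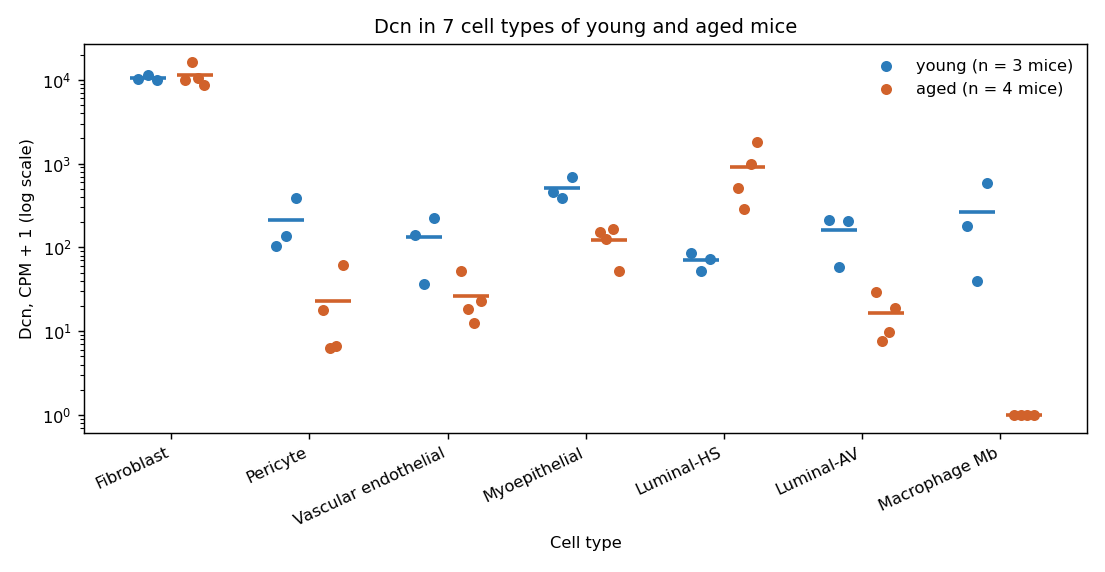
Level of Dcn in 7 cell types, as CPM plus 1 on a log axis, with 1 point per mouse (blue, 3 young; orange, 4 aged) and a bar at each group mean. The aged mice lie above the young mice in Luminal-HS, at 286 to 1825 CPM against 52.0 to 85.6 CPM, and below them in pericytes, myoepithelial cells, Luminal-AV and Macrophage Mb.

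With the cells of all mice of a group pooled, a Dcn UMI was found in 52.6% of the 567 aged HS cells (median depth 8527 UMIs). The pooled share was 24.1% of the 1571 young HS cells (6888 UMIs). By mouse, HS cells with no Dcn UMI were 65.9%, 86.3% and 77.3% in Young A to C. They were 43.2%, 67.7%, 30.1% and 23.9% in Aged A to D, so the groups overlapped through Aged B and Young A. After every cell had been thinned to 2000 UMIs the pooled shares with a Dcn UMI were 37.2% in aged and 8.85% in young HS cells. For comparison, in AV cells of the same aged mice the share was 7.13% at a median depth of 6878 UMIs, and 2.41% after thinning.

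Cells with 3 or more Dcn UMIs were 32.1%, 23.2%, 54.8% and 59.8% of the HS cells of Aged A, B, C and D, and 2.37%, 2.81% and 3.01% of those of Young A, B and C. They held 91.0%, 94.7%, 97.0% and 98.6% of the Dcn UMIs of HS cells in Aged A to D and 33.6%, 67.3% and 56.4% in Young A to C, shares that a choice by Dcn UMIs sets in part. The highest single cell had 163 Dcn UMIs, in Aged D, against 26 in any young mouse. In Aged A to D the median depth was 7950, 9834, 8279 and 10144 UMIs in these cells and 7682, 9608, 7660 and 8331 UMIs in HS cells with no Dcn UMI, the gap being widest in Aged D.

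Fibrillar collagen transcripts did not accompany Dcn in aged HS cells. Of the aged HS cells with 3 or more Dcn UMIs, 4 of 52, 1 of 51, 0 of 51 and 0 of 55 had a UMI of Col1a1, Col1a2 or Col3a1 in Aged A to D, and of the corresponding young cells 8 of 10, 2 of 8 and 13 of 26 did. Lum was 0, 0, 0 and 3.8 CPM in the aged cells and 104, 48.1 and 105 CPM in the young ones. Prlr, the prolactin receptor and a marker of HS cells, was 877, 1008, 1369 and 762 CPM in the aged cells, against 1163, 1390, 1359 and 755 CPM in HS cells of the same mice with no Dcn UMI. The keratin gene Krt18 was 4778 to 6389 CPM in them, so they carried HS and luminal transcripts beside Dcn. Of the 209 aged cells, 1 was called a doublet.

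Dcn was also set against the 3 collagens in each type, as a ratio without a test. In young mice the median ratio of Dcn UMIs to summed Col1a1, Col1a2 and Col3a1 UMIs was 1.43 in fibroblasts, 1.88 in AV cells, 1.46 in vascular endothelial cells and 1.3 in HS cells. In aged mice it was 2.97 in fibroblasts, 8.04 in AV cells and 5.9 in vascular endothelial cells. In aged HS cells the median was 147 over the 3 mice with any such UMI, none being found in Aged C, and in sum 3495 Dcn UMIs stood beside 13 collagen UMIs. In myoepithelial cells the median ratio was 10.2 in young and 16.4 in aged mice. Over the 12 fibroblast markers fixed for this work, the median of Dcn UMIs per marker UMI was 0.35 in young and 0.43 in aged fibroblasts. In HS cells the median was 0.14 in young and 3.48 in aged mice. By mouse it was 2.62, 0.59, 4.33 and 8.77 in HS cells of Aged A, B, C and D. The value of Aged B lay below the 0.63 of fibroblasts of the same mouse. In HS cells of Aged A, B, C and D, 3, 4, 10 and 4 of the markers were at 0.

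**Figure D4:**
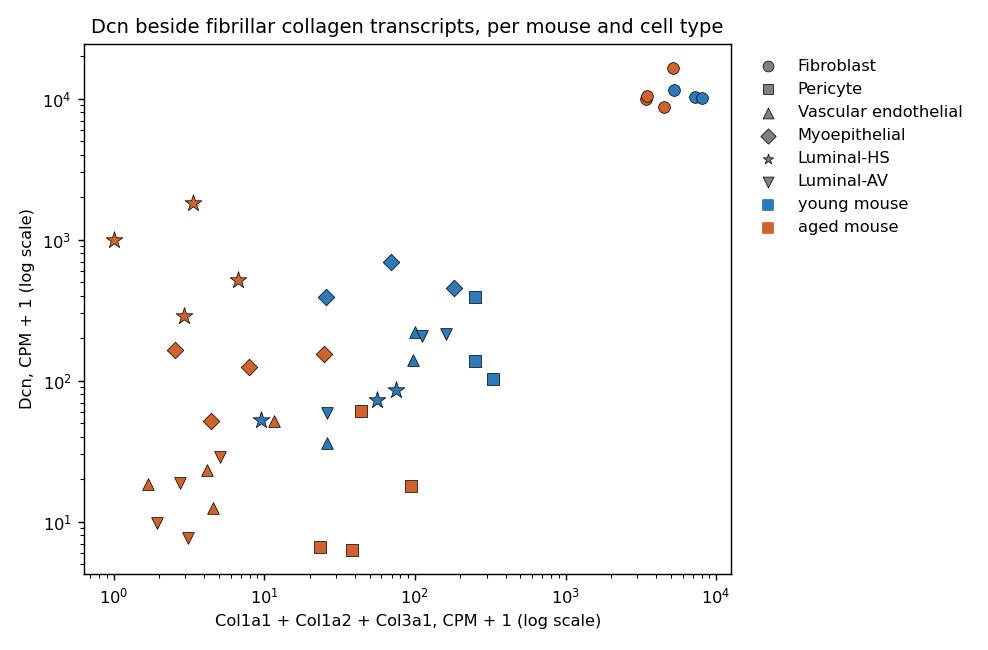
Dcn against the summed level of Col1a1, Col1a2 and Col3a1, both as CPM plus 1 on log axes, with 1 point per mouse and cell type (shape, 6 cell types; blue, young; orange, aged). Aged Luminal-HS points (orange stars) stand at 286 to 1825 CPM of Dcn with at most 5.69 CPM of the collagens. Young points of the same type (blue stars) stand at 52.0 to 85.6 CPM of Dcn with 8.49 to 74.0 CPM of the collagens.

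When all cells with any UMI of these collagens were left out, an alternative chosen after the data were seen, Dcn in HS cells was 60.1, 40.9 and 48.0 CPM in Young A to C and 503, 279, 995 and 1875 CPM in Aged A to D. This left out 7, 4, 0 and 2 HS cells of Aged A to D, so little could change in the aged mice.

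Outside HS cells and fibroblasts, Dcn was lower in aged mice in most types. These falls belong to the pattern to which the choice of genes was tied, so they are no separate finding. Of the 12 types with mice of both groups the mean was lower in 7 and higher in 5, and among the 5 only HS cells had groups that did not overlap. Among the 7, groups did not overlap in 5. Dendritic cells were 1 of these, at 779, 18.1 and 168 CPM in Young A to C and 12.9 and 0 CPM in Aged A and B. The dendritic values of Aged A and B rested on 1 and 0 Dcn UMIs. In AV cells Dcn was 214, 57.6 and 206 CPM in Young A, B and C and 28.0, 6.7, 8.9 and 17.7 CPM in Aged A to D. In pericytes it was 102, 136 and 389 CPM in young and 16.8, 5.3, 5.7 and 60.0 CPM in aged mice. The pericyte values rested on few UMIs, 2, 1, 1 and 7 in Aged A to D. In Young A, B and C, 1 cell held 22 of 68, 21 of 48 and 52 of 85 UMIs. The groups did not overlap in either type, and the log2 fold changes were -3.15 ± 0.52 in AV cells and -3.19 ± 0.67 in pericytes (SE). The value in pericytes was -2.48 without Young C and -4.32 without Aged D.

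In myoepithelial cells, the contractile outer layer of the epithelium, Dcn was 452, 393 and 698 CPM in Young A, B and C and 153, 124, 165 and 50.8 CPM in Aged A to D. The groups did not overlap, and the log2 fold change was -2.01 ± 0.30 (SE). In vascular endothelial cells Dcn was 140, 35.4 and 221 CPM in young and 50.9, 17.5, 11.6 and 22.2 CPM in aged mice, and here Aged A lay above Young B. The log2 fold change in these cells was -2.01 ± 0.53 (SE). In Mb macrophages Dcn was 177, 39.1 and 583 CPM in young mice, and 49 of the 54 UMIs of Young C came from 1 cell. No Dcn UMI was found in the 3 to 9 Mb cells of each aged mouse, too few for a comparison (0 of 22 cells in all, which allows a share of up to 13.6%, counting error only). In fibroblasts the log2 fold change of Dcn was 0.18 ± 0.22 (SE), with overlapping groups, and it was -0.03 without Aged B.

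The 3 collagens fell beside Dcn in these types. Their summed level was 98.7 CPM in AV cells of young and 2.23 CPM in those of aged mice (means of 3 and 4 mice), 276 and 48.8 CPM in pericytes, 73.4 and 4.51 CPM in vascular endothelial cells, and 91.3 and 8.93 CPM in myoepithelial cells. Without cells that held any collagen UMI, mean Dcn was 51.2 and 12.9 CPM in AV cells of young and aged mice, 49.4 and 23.9 CPM in pericytes (7.75 CPM in the aged mice without Aged D, which had 72.3 CPM from 7 UMIs), 46.0 and 25.7 CPM in vascular endothelial cells, and 278 and 114 CPM in myoepithelial cells. Leaving out only cells with 3 or more collagen UMIs gave log2 fold changes of -2.20 in AV cells and -0.96 in vascular endothelial cells. The part of fibroblast RNA in these falls was not tested further. Fewer Dcn transcripts per cell and fewer cells with stray Dcn RNA cannot be told apart from these sums.

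The other 7 members were compared between age groups within 7 cell types, on counts summed per mouse. Of 49 combinations of gene and type, 20 passed the filter on low counts, and 3 were called higher and 5 lower in aged mice (adjusted p under 0.05 over all genes of the type, at least 1.5-fold, edgeR). Over all genes and the 7 types 13.1% were called, 6.92% higher and 6.23% lower. Of the member calls 3 were in myoepithelial and 1 in vascular endothelial cells, where 27.6% and 26.7% of all genes were called. The others were 2 in pericytes (11.8% of all genes) and 2 in AV cells (6.16%). In Mb macrophages, where 1.16% of genes were called (0.931% higher and 0.233% lower), none of the 7 passed the filter. Biglycan made up 3 of the 8 calls and was higher in vessels and lower in AV cells.

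**Figure D5:**
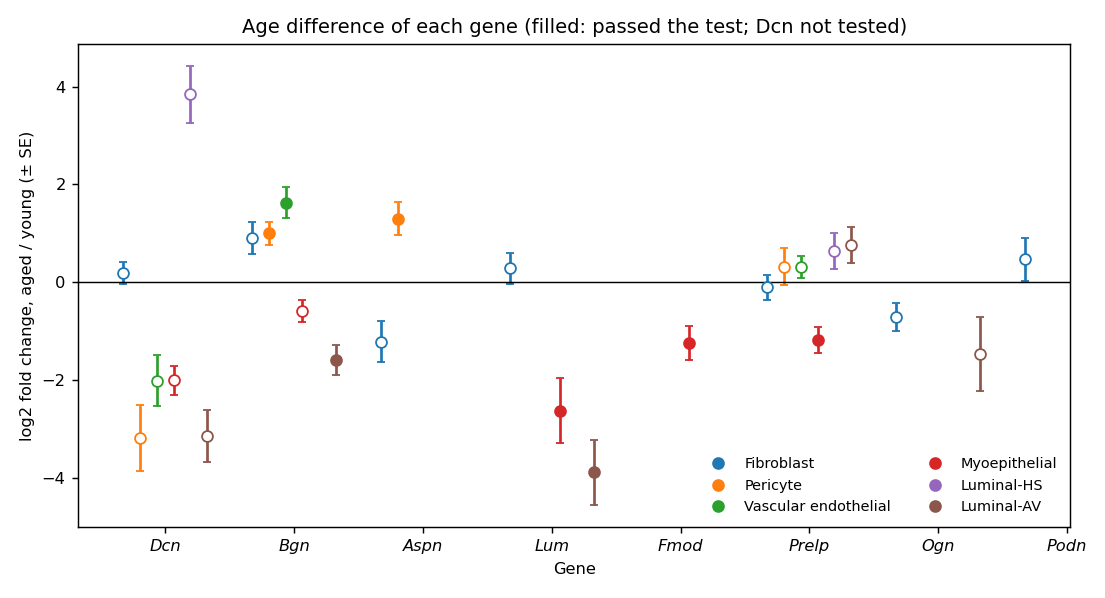
Log2 fold change of aged over young mice for each gene (x axis) in 6 cell types (colours), with bars of 1 SE; filled points passed the test and Dcn was not tested. Bgn is above 0 in fibroblasts, pericytes and vascular endothelial cells and below 0 in myoepithelial and AV cells, and Dcn lies at 3.84 in HS cells against -2.01 to -3.19 in 4 other types.

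In vascular endothelial cells Bgn was 107, 89.3 and 243 CPM in Young A, B and C and 341, 485, 300 and 263 CPM in Aged A to D. Every aged mouse was above every young mouse, with a log2 fold change of 1.63 ± 0.31 (SE, adjusted p = 0.0015 by edgeR), and this call held under all alternatives tried. Of all genes tested in these cells 26.7% were called, 14.7% higher and 12% lower. Prelp was not called there (log2 fold change 0.31 ± 0.22, SE, adjusted p = 0.32 by edgeR).

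In pericytes, where 11.8% of genes were called, 7.19% higher and 4.61% lower, 2 members were higher in aged mice. Bgn was 223, 215 and 251 CPM in Young A, B and C and 590, 318, 328 and 429 CPM in Aged A to D, with a log2 fold change of 1.00 ± 0.24 (SE, adjusted p = 0.015 by edgeR). Aspn was 90.4, 119 and 123 CPM in young and 438, 175, 232 and 129 CPM in aged mice, with a log2 fold change of 1.296 ± 0.33 (SE, adjusted p = 0.023 by edgeR). The groups did not overlap for either gene. The call of Bgn was lost without Young A or B (adjusted p = 0.074 and 0.072 by edgeR; 0.0064 to 0.074 over the alternatives) and that of Aspn without any of the young mice (adjusted p = 0.117, 0.064 and 0.056 by edgeR; 0.0018 to 0.117 over the alternatives), and pericytes numbered only 20 to 46 per aged mouse.

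In myoepithelial cells 3 of the 4 members tested besides Dcn were called lower, where 27.6% of genes were called, 14.8% lower and 12.8% higher. Prelp was 105, 265 and 185 CPM in Young A, B and C and 103, 64.8, 63.1 and 53.6 CPM in Aged A to D. All aged mice lay below the young mice, Aged A only just, with a log2 fold change of -1.19 ± 0.27 (SE, adjusted p = 0.0039 by edgeR) that held under all alternatives tried. Fmod was 55.7, 44.2 and 110 CPM in young and 12.9, 32.0, 36.9 and 25.7 CPM in aged mice, with a log2 fold change of -1.25 ± 0.35 (SE, adjusted p = 0.013 by edgeR). Without Young C it was -0.81 (adjusted p = 0.12 by edgeR; 0.0011 to 0.12 over the alternatives).

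Lum in myoepithelial cells was 34.9, 0 and 39.0 CPM in Young A, B and C and 10.1, 5.5, 1.5 and 0 CPM in Aged A to D, so the groups overlapped through Young B. Its log2 fold change of -2.63 ± 0.66 (SE, adjusted p = 0.007 by edgeR) was no longer called with DESeq2 (adjusted p = 0.289) or without cells that held 3 or more collagen UMIs (log2 fold change -1.69, adjusted p = 0.106 by edgeR). Bgn in these cells was 417, 506 and 451 CPM in young and 203, 372, 322 and 218 CPM in aged mice. The groups did not overlap, but its log2 fold change of -0.60 ± 0.22 (SE) missed the threshold at an adjusted p of 0.054 by edgeR, and without Aged B it was called (adjusted p = 0.017 by edgeR; 0.017 to 0.149 over the alternatives).

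In AV cells, where 6.16% of genes were called, 3.26% lower and 2.9% higher, Bgn and Lum were lower in aged mice. Lum was 25.4, 1.8 and 20.7 CPM in Young A, B and C and 2.5, 0.5, 0.3 and 1.0 CPM in Aged A to D, with a log2 fold change of -3.89 ± 0.67 (SE, adjusted p = 0.0086 by edgeR). Aged A lay above Young B, whose value rested on 1 UMI. Without cells that held 3 or more collagen UMIs the log2 fold change was -2.91, and the call was lost without Young A or Young C (adjusted p = 0.052 and 0.06 by edgeR; 2.4e-05 to 0.06 over the alternatives). Bgn was 27.1, 9.0 and 21.5 CPM in young and 7.6, 5.5, 4.4 and 5.3 CPM in aged mice, with a log2 fold change of -1.60 ± 0.31 (SE, adjusted p = 0.016 by edgeR). Without cells that held 3 or more collagen UMIs it was -0.68 (adjusted p = 0.231 by edgeR; 0.0005 to 0.231 over the alternatives), and without Young A or C the call was also lost (adjusted p = 0.08 for each).

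Ogn passed the filter in AV cells and was not called (log2 fold change -1.47, adjusted p = 0.27 by edgeR), but it was called lower without Aged B (-2.91, adjusted p = 0.0085 by edgeR; 0.0085 to 0.631 over the alternatives). Prelp in AV cells was 34.6, 95.3 and 99.2 CPM in Young A, B and C and 91.3, 152, 70.9 and 113 CPM in Aged A to D, with overlapping groups and a log2 fold change of 0.75 ± 0.37 (SE, adjusted p = 0.25 by edgeR). In HS cells Prelp was the only member besides Dcn to pass the filter, at 4.2 to 7.2 CPM in young and 5.8 to 12.2 CPM in aged mice (log2 fold change 0.64 ± 0.37, SE, adjusted p = 0.33 by edgeR), where 6.26% of genes were called, 3.93% higher and 2.33% lower. Bgn in HS cells was 17.9, 4.2 and 9.5 CPM in young and 2.4, 3.4, 1.4 and 3.5 CPM in aged mice, on 1 to 7 UMIs per aged mouse. It did not pass the filter and was not tested.

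In fibroblasts none of the 6 members tested besides Dcn was called, where 3.17% of genes were called, 2.07% higher and 1.11% lower. Aspn was 91.7, 131 and 130 CPM in Young A, B and C and 49.99, 5.8, 101 and 54.9 CPM in Aged A to D, on 1 UMI in Aged B, with a log2 fold change of -1.22 ± 0.41 (SE, adjusted p = 0.13 by edgeR). Ogn was 513, 789 and 560 CPM in young and 297, 213, 468 and 485 CPM in aged mice, and its log2 fold change was -0.72 ± 0.29 (SE, adjusted p = 0.19 by edgeR). In these CPM the groups came apart for Ogn, narrowly, but not for Aspn. On the TMM scale used by the fit Ogn overlapped as well, at 535 CPM in Aged D and 489 CPM in Young A. Without the filter on low counts both genes were called (adjusted p = 0.0073 and 0.0014 by edgeR).

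Bgn in fibroblasts was 587, 388 and 896 CPM in Young A, B and C and 779, 1519, 696 and 1381 CPM in Aged A to D, with a log2 fold change of 0.90 ± 0.33 (SE, adjusted p = 0.16 by edgeR). Lum (0.28 ± 0.31), Prelp (-0.11 ± 0.26) and Podn (0.46 ± 0.44) had smaller differences relative to their SE. The unequal number of fibroblasts, 184 to 1034 per young and 15 to 121 per aged mouse, limits these estimates on the aged side. The Pi16/Dpp4 set was 50.4%, 70.7% and 62.1% of fibroblasts in Young A to C and 47.1%, 22.0%, 46.7% and 58.8% in Aged A to D, and the part of that mix in the age differences was not tested.

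Whether a member's age difference was not the same in 2 cell types was tested per mouse for 30 combinations of gene and pair of types, on log2 of CPM plus 1, with an exact two-sided permutation test over the 35 divisions of the mice. Of these, 6 reached the smallest p possible, 0.029, and none passed after adjustment (smallest adjusted p = 0.14). With that smallest p and 30 combinations a single difference could not pass on its own, however large. The test therefore cannot decide whether the differences below are real. For Bgn, vascular endothelial cells changed by 1.34 and AV cells by -1.49, a difference of 2.83 (exact permutation p = 0.029, adjusted p = 0.14). The difference between vascular endothelial and myoepithelial cells was 2.10 (exact permutation p = 0.029, adjusted p = 0.14). For Prelp, myoepithelial cells changed by -1.31 and AV cells by 0.57, a difference of -1.88 (exact permutation p = 0.029, adjusted p = 0.14).

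The rest of the family and the genes that act with it were counted from fixed lists of genes other than the 8. None of the other 9 family genes was called in any type, and only 3 tests of them were possible. The collagens the members bind were called lower in 5 types. In aged mice 6 of 9 tested were lower in AV cells (3.26% of all genes), 5 of 8 in myoepithelial cells (14.8%), 3 of 6 in pericytes (4.61%), 2 of 2 in vascular endothelial cells (12%) and 2 of 10 in fibroblasts (1.11%), and 1 in myoepithelial cells was higher (12.8%). Their median log2 fold change was -3.50 in AV cells and -1.58 in myoepithelial cells, against 0.02 and 0.01 over all genes.

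In fibroblasts the called collagens were Col6a3, 361 CPM in young and 150 CPM in aged mice (log2 fold change -1.25, adjusted p = 0.012 by edgeR), and Col3a1, 2969 and 1222 CPM (-1.20, adjusted p = 0.019 by edgeR). Fibroblasts are the main source of both chains. In AV cells the same transcripts were scarce, Col3a1 being 3.6 to 60.0 CPM in young and 0.14 to 0.66 CPM in aged mice. In HS cells only 1 collagen of the list passed the filter, and it was not called (6.26% of all genes were).

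Of the 28 genes for chondroitin, dermatan and keratan sulfate synthesis, 3 calls higher and 6 lower came from 70 tests over the 7 types, a share near the 13.1% of all genes called. Ugdh, which makes the UDP-glucuronate used for the chains, was lower in aged fibroblasts (1630 against 667 CPM in young and aged mice, log2 fold change -1.20, adjusted p = 0.019 by edgeR), in AV cells (41.7 against 13.1 CPM, log2 fold change -1.44, adjusted p = 0.0033) and in myoepithelial cells (86.0 against 47.1 CPM, log2 fold change -0.76, adjusted p = 0.025). In HS cells none of 12 such genes was called, where 6.26% of all genes were called.

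Among ligands and receptors that the members bind, 12 calls were higher and 4 lower in 53 tests, where over all genes and the 7 types 6.92% were higher and 6.23% lower. Of these calls 5 higher and 1 lower were in myoepithelial and 3 higher and 2 lower in vascular endothelial cells, the types with the most genes called. In AV cells 3 of 14 tested were higher and 1 lower, where 2.9% and 3.26% of all genes were. Ctgf (log2 fold change 3.02, adjusted p = 0.019 by edgeR) and Tlr4 (1.84, adjusted p = 0.0086 by edgeR) were among those higher in aged AV cells. Tlr2, a receptor of biglycan, was higher in aged myoepithelial cells (17.1 against 172 CPM in young and aged mice, log2 fold change 3.67, adjusted p = 4.2e-06 by edgeR) and in vascular endothelial cells (11.5 against 45.6 CPM, 2.45, adjusted p = 6.5e-05). Tgfb3 was higher in pericytes (15.4 against 86.5 CPM, 2.69, adjusted p = 0.002) and Bmp4 in vascular endothelial cells (30.5 against 155 CPM, 2.66, adjusted p = 7.1e-07). None of the 4 tested in HS cells was called, where 6.26% of all genes were called.

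Of the other proteoglycans 10 calls were higher and 5 lower in 55 tests, against 6.92% higher and 6.23% lower over all genes, and 9 of these 15 calls were in vascular endothelial and myoepithelial cells, where 26.7% and 27.6% of all genes were called. Among those whose groups did not overlap, the largest changes were in AV cells (2.9% of all genes higher, 3.26% lower). There Esm1 was higher (0.38 against 27.1 CPM in young and aged mice, log2 fold change 6.16, adjusted p = 0.00084 by edgeR). Gpc6 was lower in AV cells (79.5 against 2.5 CPM, -4.65, adjusted p = 0.0013 by edgeR). Sdc4, a syndecan, was higher in fibroblasts (151 against 320 CPM in young and aged mice, log2 fold change 1.25, adjusted p = 0.029 by edgeR). It was also higher in myoepithelial cells (725 against 1776 CPM, 1.40, adjusted p = 0.00091 by edgeR). Of the proteases that cut the members 3 calls were higher and 3 lower in 35 tests, where 13.1% of all genes were called over the types. Adamts4 rose in vascular endothelial cells (203 against 554 CPM, 1.81, adjusted p = 6.1e-05) and Mmp2, which cuts decorin, was higher in those cells (1.66) and lower in AV cells (-2.21, adjusted p = 0.03).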

How the data were processed

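Single-cell libraries were made by the authors with 10x 3′ v2 chemistry, 1 per mouse. Per the labels reads were processed with Cell Ranger 2.0 on mm10, and the authors filtered cells, named 13 cell types by clustering. The deposited values are whole UMI counts with no scaling. The 8 genes, lists and tests were chosen with earlier results of these data known.

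Within each mouse the counts of all cells of a type were added up where it had 3 or more (10 per fibroblast set). These sums were filtered with filterByExpr, scaled by TMM and tested with the edgeR 4.0.16 quasi-likelihood test (R 4.3.3). Genes were called at Benjamini-Hochberg adjusted p under 0.05 and at least 1.5-fold, over all genes. SE is the log2 fold change over the root of F. The fits were tested on simulated data. DESeq2 1.42.0 was an alternative, among 167 planned and 1 added after seeing the data. Scrublet (scanpy 1.11.5, expected rate 0.06) called 80 doublets, 0.585% of 13684 cells, which were kept. Cells were thinned to 2000 UMIs for shares. Levels are CPM of summed counts. Genes named from lists were at most 2 called genes per list and type with the largest change whose groups did not overlap, members were named where their mean reached 10 CPM, and further members and collagens of the fibroblast sets were named after their values were seen. Mice of a group are separate animals. Intervals cover counting error only. With 3 against 4 mice the smallest exact p is 0.029. The label letters did not pair young with aged mice (Pearson's r of deviations -0.174 to 0.372 over 21 checks). Python 3.11.15 with numpy 2.4.6, pandas 2.3.3, scipy 1.17.1 and matplotlib 3.10.9 was used. Protein sequences and promoters were not used here.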

Additional observations from a re-analysis of the deposited data

Results flagged for a closer look

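Of 26 groups of 4 aged mice in which a member averaged at least 10 CPM, 3 held a mouse far from the other 3, where chance gives about 1 in 20. Ogn in pericytes was 253 CPM in Aged A, from 30 UMIs in 8 of 24 cells, against 5.7 to 25.7 CPM in the other aged mice. Prelp in T and B cells was 64.6 CPM in Aged A, from 4 UMIs of 1 cell, and 0 in the other aged mice. Prelp in vascular endothelial cells was 26.7 CPM in Aged C, below the 37.7 to 38.1 CPM of the others, which lay close together. No explanation was tested for any of them.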

How the results depend on the processing

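Over all alternatives of the age change of a member, 356 values kept their direction and call, 16 lost a call, 5 gained one, 10 moved an untested value and 6 changed direction. Those 6 were Dcn in fibroblasts with no filter on low counts (log2 fold change -0.059) and without Aged B (-0.034), Lum in fibroblasts without Aged B (-0.14), Prelp in fibroblasts without Young C (0.091) and without Aged A (0.053), and Prelp in pericytes without Aged B (-0.24). Without each mouse in turn these log2 fold changes ran from -0.034 to 0.28 for Dcn, -0.14 to 0.46 for Lum and -0.24 to 0.091 for Prelp in fibroblasts, and from -0.24 to 0.54 for Prelp in pericytes. For members between fibroblast sets 74 values kept their call, 7 lost and 1 gained a call. No cause was tested. With no filter on low counts the genes called with age were 582 in fibroblasts (175 with it), 560 in pericytes (307), 1215 in HS cells (529) and 71 in Mb macrophages (10), where DESeq2 called 45. Counts thinned to the smallest total gave 40 in fibroblasts, 175 in pericytes, 688 in myoepithelial cells (1860), 232 in HS and 153 in AV cells (678). The label letter as a replicate block, which did not pair the mice, gave 30 in fibroblasts, 184 in pericytes, 1558 in vascular endothelial (2099), 1269 in myoepithelial, 165 in HS and 424 in AV cells and 35 in Mb macrophages. With that block Bgn in AV cells (adjusted p = 0.052) and in pericytes (adjusted p = 0.052 by edgeR) lost their calls. Without each mouse in turn the counts were 68 to 150 in fibroblasts, 128 to 347 in pericytes, 1655 to 2056 in vascular endothelial, 977 to 1829 in myoepithelial, 134 to 554 in HS and 201 to 619 in AV cells, and 2 to 9 in Mb macrophages. Between the fibroblast sets 1002 genes were called, 593 with each cell thinned, 534 to 1215 without 1 mouse and 579 with no replicate block, and 6 members, 4 to 6 without 1 mouse and 4 with no replicate block. The median of Dcn UMIs per fibroblast marker UMI in aged HS cells, 3.48 over 4 mice, was 147 per collagen UMI over the 3 mice with any. Mb macrophages with at least 10 cells per mouse could not be fitted, since no aged mouse had them. Depth limits the aged side, with 15 to 121 fibroblasts per mouse.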

Other observations

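Fmod in pericytes did not pass the filter on low counts and was not tested. It was 3.0, 2.8 and 4.6 CPM in Young A, B and C, from 1 to 2 UMIs each, and 101, 10.6, 22.6 and 42.9 CPM in Aged A to D, from 12, 2, 4 and 5 UMIs. The groups did not overlap. Lum in pericytes was 10.55 to 27.4 CPM in the young mice, from 7, 7 and 6 UMIs in Young A, B and C, and 0 in all 4 aged mice. In the aged mice 3 UMIs would amount to 15.9 to 25.7 CPM, so a level in the young range would give few UMIs there. Lum in pericytes was not tested either.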
